A study of Mus musculus with 12 samples.

Results

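The 9 genes described here encode the first steps of branched-chain amino acid oxidation and the oxidation of ketone bodies, and were taken by gene symbol from the table of 55421 genes, where each symbol occurred once. They are Bcat2, Bckdha, Bckdhb, Dbt, Bckdk and Ppm1k for the amino acids and Bdh1, Oxct1 and Acat1 for the ketone bodies. Their transcripts were counted by RNA sequencing of ventricle from 12 mice of genotype WT, 4 in each of 3 groups. Mice of the first group, called saline here, had saline with vehicle. Those of the second, AngII, had vehicle and angiotensin II (Ang II), a hormone that constricts vessels and enlarges the heart, released by an osmotic minipump placed beneath the skin at the back of the neck. Those of the third, AngII_FI, had the same pump and Forsythoside I (FI), given at 50 mg/kg into the peritoneum on alternate days, beginning the day before the pump was placed and ending on day 14. No group received FI without Ang II, and the labels used here give no age or strain. Whole ventricle holds several cell types, so fewer cardiomyocytes and less of a transcript per cardiomyocyte cannot be told apart.

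Leucine, isoleucine and valine are oxidised in mitochondria. The aminotransferase BCAT2 removes the amino group, and the branched-chain ketoacid dehydrogenase complex then commits the carbon skeleton to oxidation. That complex has an E1 component made of alpha and beta chains (Bckdha and Bckdhb), an E2 core (Dbt) and a shared E3 subunit (Dld), and it is switched off by the kinase BCKDK and on by the phosphatase PPM1K. Ketone bodies are made in the liver from fatty acids and burned elsewhere: BDH1 turns beta-hydroxybutyrate into acetoacetate, the transferase encoded by Oxct1 (SCOT) activates it, and the thiolase ACAT1, which also serves isoleucine breakdown, splits it to acetyl-CoA. The liver holds little SCOT and little BCAT2, and the heart is a large consumer of ketone bodies.

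Libraries held 68874852 to 80624227 counts, so a count of 3 equals 0.0372 to 0.0436 CPM (counts scaled to the library total; counting error only), and each of the 9 genes had at least 2498 counts in every library. The 10 cardiomyocyte markers summed to 34367 to 48035 CPM, and all 10 were detected. One library, AngII_FI 3, held 28745 CPM on 24 hepatocyte markers, and all 24 were highest there. AngII 3 held 70.4 CPM on these markers, and the remaining libraries held 2.86 to 9.73 CPM. Every edgeR comparison that uses AngII_FI was therefore also fitted without AngII_FI 3. Fold changes and p-values not marked otherwise are from all 12 libraries. The edgeR fold changes also use a scaling factor per library (TMM), which CPM and the overlap of groups do not. With all 12 libraries that factor was 0.948, 0.954 and 0.950 in AngII_FI 1, 2 and 4 and 1.07 in AngII_FI 3. It was 0.956 to 1.04 in saline and 0.958 to 1.07 in AngII, and a factor under 1 raises the scaled value. DESeq2 and limma-voom were run on all 12 libraries only. Nothing in the labels says which libraries were prepared together, and whether the numbers 1 to 4 mark more than the order of the mice is not stated, so p-values measure the spread between these 12 libraries.

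Promoters of 3 genes are printed because their genes stand for the patterns in the data: Bckdha, the most clearly lower of the E1 genes under Ang II, Bckdhb, its partner chain, and Bdh1, the one member whose fold change against saline was above 0 in both treated groups. Each is a RefSeq window (GRCm38.p6) of 300 bases that spans an annotated start, on the strand of the gene, with CCACCC, the GT box bound by Krüppel-like factors such as KLF15, in capitals on either strand (read as GGGTGG on the other). The Bckdha window holds none.
Bckdha, chr7:25658712-25659011, minus strand: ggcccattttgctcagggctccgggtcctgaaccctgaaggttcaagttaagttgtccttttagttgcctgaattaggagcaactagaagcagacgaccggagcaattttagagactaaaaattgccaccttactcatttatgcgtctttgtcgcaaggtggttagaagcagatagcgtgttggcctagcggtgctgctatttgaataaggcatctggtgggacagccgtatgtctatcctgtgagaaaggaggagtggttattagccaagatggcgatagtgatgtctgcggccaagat
Bckdhb, chr9:83924887-83925186, plus strand: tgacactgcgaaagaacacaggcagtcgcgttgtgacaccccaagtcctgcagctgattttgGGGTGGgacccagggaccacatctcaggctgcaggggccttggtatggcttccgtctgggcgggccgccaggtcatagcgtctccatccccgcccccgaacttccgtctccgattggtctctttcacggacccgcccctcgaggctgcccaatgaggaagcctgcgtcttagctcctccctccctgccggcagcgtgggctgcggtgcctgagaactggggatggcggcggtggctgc
Bdh1, chr16:31428503-31428802, plus strand: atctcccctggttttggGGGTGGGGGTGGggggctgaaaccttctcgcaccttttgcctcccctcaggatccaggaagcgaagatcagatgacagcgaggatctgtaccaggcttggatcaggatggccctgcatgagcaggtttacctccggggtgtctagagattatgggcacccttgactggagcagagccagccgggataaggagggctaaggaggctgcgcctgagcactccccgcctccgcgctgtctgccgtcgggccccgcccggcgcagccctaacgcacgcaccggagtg
The table held 10 windows for 7 of the 9 genes. CCACCC was in 3 of the 10, those of Bcat2, Bckdhb and Bdh1, and in 31.5% of all 32851 windows. Bdh1, Bckdhb and Bcat2 have 2 windows each, of which 1 holds CCACCC and the other none; the windows printed for Bdh1 and Bckdhb are those that hold it. In the printed window of Bdh1 the 2 matches touch end to end. GGGCGG, the GC box, was in 3 of the 10 and in 35.7% of all windows. AAGGTCA, a nuclear receptor half-site, was in 0 of the 10 against 4.72%, and CACGTG, an E-box, in 0 against 7.15%, on both strands. These matches are a description of the letters only.

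In saline ventricles the genes fell into an abundant trio and a scarcer rest. Levels were set per kilobase of all annotated exons of a gene, which allows an approximate comparison between genes. That length can exceed the length of the transcript expressed, so the order and the ratios between genes are approximate too. Acat1 stood at 196 ± 5.80 CPM per kb (mean ± SD, n = 4), Oxct1 at 164 ± 18.0 and Bckdha at 141 ± 20.7. Bcat2 followed at 28.8 ± 5.56, Bckdhb at 28.0 ± 4.95, Bdh1 at 21.7 ± 1.99, Bckdk at 19.1 ± 1.68, Dbt at 18.2 ± 1.79 and Ppm1k at 12.4 ± 1.87 CPM per kb. The ranges of neighbours in this order overlapped for Oxct1 and Bckdha, for Bcat2 and Bckdhb, for Bdh1 and Bckdk and for Bckdk and Dbt, so their order is not resolved. The alpha chain of E1 was thus represented by 4.69 to 5.81 times as many counts per length as the beta chain in saline, 4.34 to 5.14 times in AngII and 4.59 to 5.94 times in AngII_FI. Bckdha shares 1171 bases, or 61.7% of its exon length, with B3gnt8 on the opposite strand. The sources used here do not give the strand setting of the counting, and its level per length is therefore uncertain. B3gnt8 itself had 1662 to 2534 counts per library, against 12068 to 22223 for Bckdha.

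The comparison of AngII with saline asks how these genes change under Ang II. Of the 4 genes of the branched-chain ketoacid dehydrogenase complex, 2 fell: Bckdha, for the E1 alpha chain, to 0.700 times and Dbt, for the E2 core, to 0.721 times the saline level. Bckdhb and the shared E3 gene Dld did not pass (Dld, named after its values were seen, had a log2 fold change of -0.13 ± 0.09, edgeR adjusted p = 0.538). In all, 2 of the 9 genes fell and 0 rose by edgeR's quasi-likelihood test at an adjusted p under 0.05, where 0.662% of the 17376 genes tested fell and 1.57% rose. All 6 amino acid genes had values below 0, with a median log2 fold change of -0.43 against 0.00465 over all tested genes. The 3 ketone body genes did not share a direction. Whether the amino acid and the ketone body genes differ was not tested.

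Bckdha (chromosome 7, 25629946 to 25658981) stood at 225, 249, 285 and 314 CPM in saline and at 205, 181, 170.2 and 204 CPM in AngII. All 4 AngII values lay below all 4 saline values. The means were 268 ± 39.3 and 190.0 ± 17.3 CPM, and the log2 fold change was -0.52 ± 0.10 (SE, edgeR adjusted p = 0.0228). Dbt (chromosome 3, 116513070 to 116549981) stood at 64.4, 53.6, 58.8 and 67.1 CPM in saline and at 47.6, 43.2, 43.7 and 43.9 CPM in AngII. Here too the groups did not overlap, and 3 of the AngII libraries were within 1 CPM of each other. The log2 fold change of Dbt was -0.47 ± 0.09 (edgeR adjusted p = 0.0222).

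Bckdhb, for the E1 beta chain (chromosome 9, 83925145 to 84124240), went from 50.6 ± 8.94 to 38.2 ± 1.39 CPM, with saline at 43.8, 48.3, 46.7 and 63.7 and AngII at 40.3, 37.6, 37.3 and 37.7 CPM. Its log2 fold change was -0.42 ± 0.12, which did not pass (edgeR adjusted p = 0.0861), although the groups did not overlap. Bcat2, the aminotransferase (chromosome 7, 45570153 to 45589711), stood at 96.1, 101, 108 and 144.0 CPM in saline and 85.0, 77.0, 83.9 and 91.3 CPM in AngII. The groups were apart again, at a log2 fold change of -0.43 ± 0.12 (edgeR adjusted p = 0.0964). The top saline value of both genes came from saline 4, and without that library the log2 fold changes were -0.30 and -0.29. Saline 4 was the highest saline library for 7 of the 9 genes, and it also held the most cardiomyocyte marker counts, 48035 CPM against 34505 to 41451 CPM in the other saline libraries. The part of this in the result was not tested. Mitochondrially encoded genes held 34.0% of counts in saline 4, against 35.5% to 38.8% in the other saline libraries. The part of that share in these CPM was not tested.

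The enzymes that switch the complex showed smaller differences. Bckdk, the inhibitory kinase (chromosome 7, 127904082 to 127910221), stood at 63.4 to 78.5 CPM in saline and 57.4 to 66.8 CPM in AngII (log2 fold change -0.20 ± 0.09, edgeR adjusted p = 0.261). Ppm1k, the activating phosphatase (chromosome 6, 57506502 to 57535468), stood at 67.0 to 91.3 and at 67.4 to 72.9 CPM (-0.12 ± 0.10, edgeR adjusted p = 0.610). For both genes the groups overlapped. The ratio of Bckdk to Ppm1k counts per length was 1.40 to 1.72 in saline and 1.28 to 1.58 in AngII, so it overlapped as well.

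Of the ketone body genes, Acat1 (chromosome 9, 53580522 to 53610382) was lower with little spread: 758, 721, 717 and 755 CPM in saline against 635, 622, 586 and 683 CPM in AngII. The groups did not overlap, yet the log2 fold change of -0.24 ± 0.07 missed the threshold (edgeR adjusted p = 0.0848). Bdh1 (chromosome 16, 31422280 to 31458901) stood at 82.2, 74.9, 86.5 and 93.3 CPM in saline and 97.1, 87.0, 104 and 118 CPM in AngII. Of the 4 AngII values, 3 lay above the saline range, and the log2 fold change was 0.26 ± 0.18 (edgeR adjusted p = 0.556). Oxct1 (chromosome 15, 4026383 to 4155344) stood at 679, 529, 574 and 638 CPM in saline and 510.5, 440, 541 and 1159 CPM in AngII. Its AngII mean of 663 ± 334 CPM rests on AngII 4. With that library the log2 fold change was 0.11 ± 0.26 (edgeR adjusted p = 0.892), and without it -0.31.

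**Figure D1:**
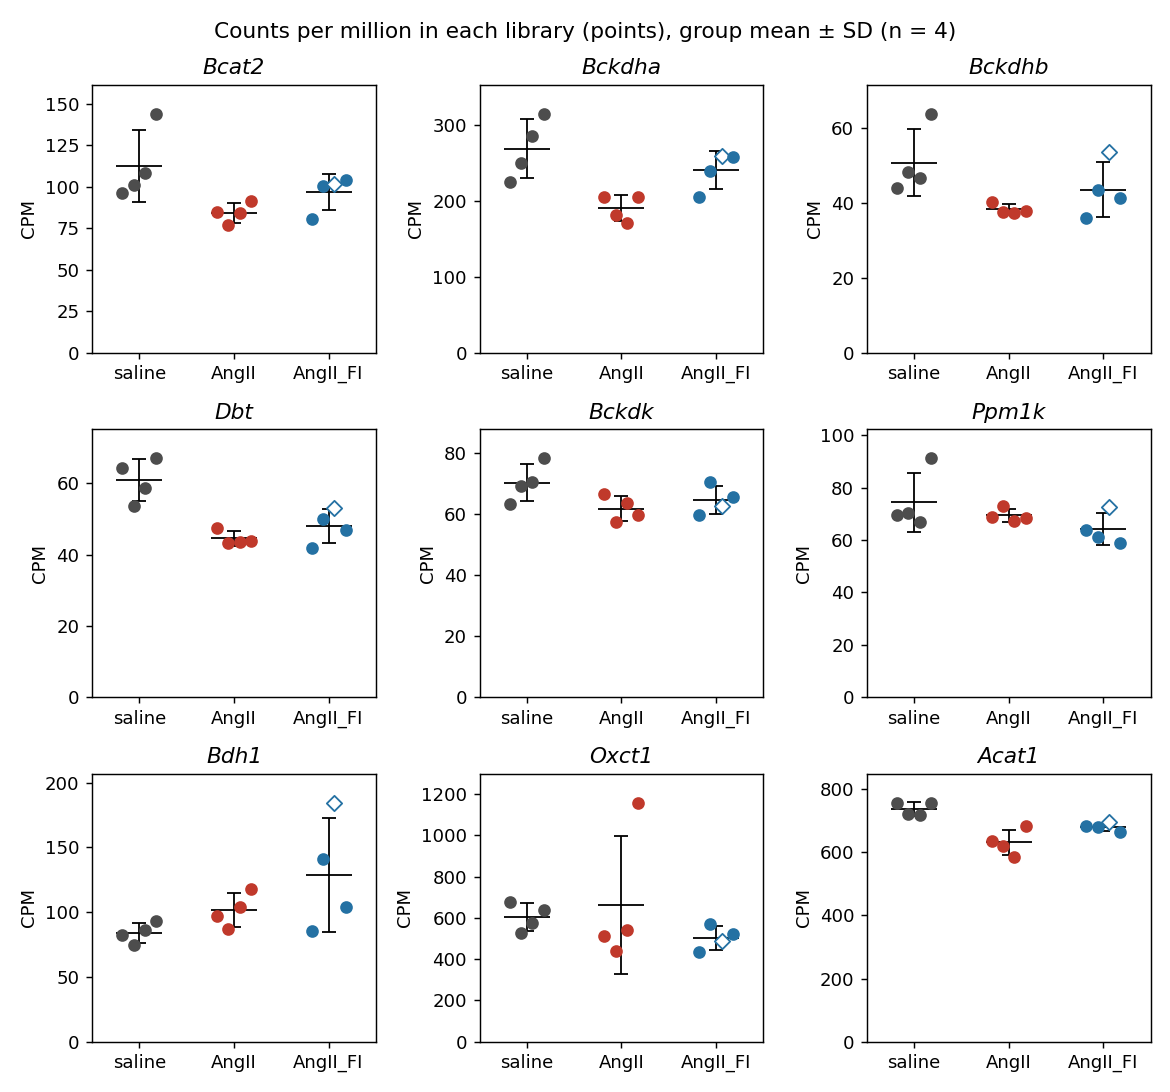
CPM (linear axis from 0) of each of the 9 genes in each library, with saline in grey, AngII in red and AngII_FI in blue; bars are the group mean ± SD (n = 4) and the open diamond is AngII_FI 3, the library with hepatocyte transcripts. The AngII points of Bcat2, Bckdha, Bckdhb, Dbt and Acat1 lie below all saline points, and 1 AngII library stands at 1159 CPM for Oxct1.

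In 5 of the 9 genes, Bcat2, Bckdha, Bckdhb, Dbt and Acat1, all AngII values were thus below all saline values, as were those of 4.56% of tested genes. DESeq2 called these 5 genes lower, and 1.59% of the 27069 genes it fitted. Those 27069 were not filtered by count beforehand as the genes of edgeR were, so the shares of the 2 methods are not on the same footing. Both edgeR calls were lost in some of the 12 fits that each left out 1 library. Over all tested genes 115 were called lower in the fit of all 12 libraries. Without saline 1, saline 4, AngII 2, AngII 3 or AngII 4 these were 19, 11, 14, 20 and 15. Bckdha lost its call without saline 4 (log2 fold change -0.44), AngII 2 (-0.49), AngII 3 (-0.49) or AngII 4 (-0.56), with edgeR adjusted p of 0.0636, 0.0840, 0.0768 and 0.0520. Dbt lost its call without saline 1 (-0.42), saline 4 (-0.43), AngII 2 (-0.45), AngII 3 (-0.49) or AngII 4 (-0.47), with edgeR adjusted p of 0.0668, 0.0710, 0.0840, 0.0572 and 0.0712. Over the 12 fits the log2 fold change stayed between -0.57 and -0.44 for Bckdha and between -0.53 and -0.42 for Dbt.

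**Figure D2:**
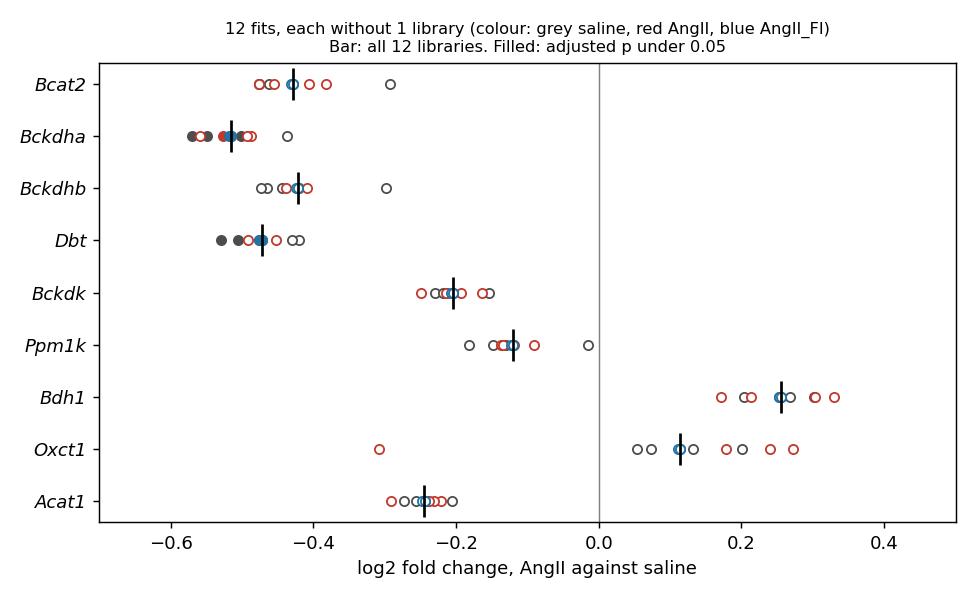
Log2 fold change of AngII against saline for each gene in 12 edgeR fits, each without 1 library (circles coloured by the group of the library left out, filled where the adjusted p is under 0.05), with the fit of all 12 libraries as a black bar. The values of Bckdha stay between -0.57 and -0.44, while that of Oxct1 turns to -0.31 in the fit without AngII 4.

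Other genes of the same routes, enzymes along with amino acid and ketone body carriers and transcriptional regulators, were read from lists of 45 genes, of which 43 were tested. With Ang II, 2 of them fell and 0 rose, beside 0.662% and 1.57% of all tested genes, and the median log2 fold change was -0.12. Both that fell in the fit of all 12 libraries act on leucine. Ivd, isovaleryl-CoA dehydrogenase, the step after the ketoacid dehydrogenase, stood at 181, 170.0, 158 and 174 CPM in saline and 110.5, 94.5, 99.6 and 107 CPM in AngII. The groups did not overlap, with a log2 fold change of -0.75 ± 0.13 (edgeR adjusted p = 0.0156). Mccc2, a subunit of methylcrotonyl-CoA carboxylase, went from 62.2 ± 6.28 to 49.0 ± 3.80 CPM (-0.36 ± 0.08, edgeR adjusted p = 0.0341). Auh, the hydratase of the same branch, had a log2 fold change of -0.36 ± 0.08 and Pcca, a subunit of propionyl-CoA carboxylase, of -0.44 ± 0.10, both of which just missed the threshold.

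By branch, all 5 leucine genes, 3 of 3 isoleucine genes, 3 of 4 valine genes and 10 of 11 genes from propionate to succinate had values below 0, with medians of -0.36, -0.07, -0.24 and -0.19. Over all tested genes 49.4% had values below 0. The isoleucine values reached from -0.29 to only -0.02. Of the 8 genes for amino acid transport and first steps, 7 were above 0 (median 0.30), none past the threshold. Slc16a1, the monocarboxylate carrier that admits ketone bodies, stood at 236 ± 33.7 and 234 ± 30.9 CPM. Klf15, a transcription factor known to drive amino acid catabolism in muscle and heart, had a log2 fold change of -0.40 ± 0.19 (edgeR adjusted p = 0.328). Mccc2 lost its call in 8 of 12 fits that left out 1 library (saline 1, 3 or 4, any of the 4 AngII libraries or AngII_FI 4; -0.41 to -0.30 over the 12 fits). Ivd lost it in 4, without saline 1, saline 4, AngII 2 or AngII 4 (-0.70, -0.75, -0.71 and -0.78). In the fit without AngII_FI 3, which enters this comparison only through the filter, scaling and shared spread, 7 of the 43 fell and 1 rose, beside 1.37% and 2.49% of 17702 tested genes. Of the 7, 3 were leucine genes, 1 was a valine gene and 3 were genes from propionate to succinate. The higher one, named after its values were seen, was the lactate carrier Slc16a3 (0.88 ± 0.22). By CPM, 12 of the 45 listed genes were lower in AngII than in saline without overlap, beside 4.56% of tested genes. Slc16a3 alone was higher without overlap, and the share of tested genes that were so was not counted.

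Summed markers of some other cells moved in the same comparison. The 8 macrophage markers summed to 183 to 228 CPM in saline and 300.3 to 339 CPM in AngII, and the 8 endothelial markers to 952 to 1255 and 1265 to 1547 CPM, in both cases without overlap. The 10 cardiomyocyte markers summed to 34505 to 48035 and 34367 to 39164 CPM, which overlapped. The fibroblast sums, 1621 to 2185 and 2145 to 2415 CPM, overlapped, as did the smooth muscle and pericyte, adipocyte and red blood cell sums. The share of these differences in the lower amino acid genes was not tested.

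AngII_FI was next set against AngII, the comparison that bears on FI. By edgeR 0 of the 9, 0 of the 43 and 0% of all 17376 genes passed the threshold, with 2 of the 9 and 1729 of all genes at an unadjusted p under 0.05. DESeq2 and limma-voom also called 0 of the 9, and over all genes limma-voom called 0 while DESeq2 had 12 that were higher and 36 that were lower. Without AngII_FI 3, edgeR called 0 of the 9, beside 0% of all genes higher and 0.00565% lower. Of the 9 genes, 7 had values above 0 and 2 below, with a median log2 fold change of 0.17 against 0.0176 over all tested genes, and the counts and the median were 7, 2 and 0.17 without AngII_FI 3, against -0.00274 over all genes. This comparison and that of AngII with saline share the AngII libraries.

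Bckdha showed the smallest p of the 9, at 205, 239, 258 and 258 CPM in AngII_FI. AngII_FI 1 lay level with the highest AngII values, and the other 3 lay above all of AngII. The log2 fold change was 0.40 ± 0.10 (edgeR adjusted p = 0.411), and without AngII_FI 3 it was 0.40 ± 0.11 (edgeR adjusted p = 0.542). Bcat2 stood at 80.5, 100.4, 102 and 104 CPM, a log2 fold change of 0.26 ± 0.12 (0.27 ± 0.14 without AngII_FI 3). Dbt stood at 41.8, 50.1, 53.2 and 47.0 CPM (0.17 ± 0.09, and 0.15 ± 0.10), and Bckdhb at 35.8, 43.3, 53.5 and 41.2 CPM (0.25 ± 0.12, and 0.17 ± 0.12). In all 4 genes AngII_FI 1 was the lowest AngII_FI library, as it was for 7 of the 9 genes. Its Bckdha and Bcat2 values lay within the AngII range, and its Dbt and Bckdhb values lay below all 4 AngII values. None of the 9 genes had AngII_FI values all above those of AngII, as 0.858% of tested genes had (1.32% without AngII_FI 3), and none had them all below, as 5.12% had.

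Bckdk stood at 59.7, 70.7, 62.7 and 65.6 CPM in AngII_FI (log2 fold change 0.13 ± 0.09) and Ppm1k at 64.0, 61.3, 72.7 and 58.9 CPM (-0.05 ± 0.10). Both overlapped AngII. Without AngII_FI 3, whose 72.7 CPM is the top value, the 3 remaining Ppm1k values lay below all 4 AngII values, as did those of 9.99% of tested genes. The log2 fold change was then -0.08 ± 0.10 (edgeR adjusted p = 0.876). These CPM are before TMM scaling, whose factors were below 1 in those 3 libraries, and overlap after it was not tested. The ratio of Bckdk to Ppm1k counts per length was 1.41 to 1.88 in AngII_FI, lowest in AngII_FI 3 and overlapping both other groups.

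Acat1 stood at 682, 680, 695 and 663 CPM in AngII_FI, a log2 fold change of 0.17 ± 0.07 (0.19 ± 0.08 without AngII_FI 3, edgeR adjusted p = 0.446 and 0.565). Its 4 values fell between the lower 3 AngII values and the saline range, but AngII 4 lay among them. Bdh1 was the most variable with FI, at 85.2, 141, 185 and 104 CPM. The highest value was that of AngII_FI 3, and the log2 fold change went from 0.39 ± 0.18 to 0.21 ± 0.16 without it. Oxct1 stood at 435, 572, 487 and 522 CPM, all below the mean of AngII. AngII_FI 1 lay just below the lowest AngII value and the other 3 lay within the AngII range. The log2 fold change of Oxct1 was -0.33 ± 0.26 (edgeR adjusted p = 0.705), and 0.08 without AngII 4.

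Marker sums also differed between AngII_FI and AngII. The 8 fibroblast markers summed to 2009.6 to 2104 CPM in AngII_FI against 2145 to 2415 CPM in AngII, and the 8 smooth muscle and pericyte markers to 778 to 909.6 against 970.1 to 1107 CPM, both lower without overlap, with or without AngII_FI 3. The cardiomyocyte sums, 35083 to 43476 against 34367 to 39164 CPM, overlapped, as did the endothelial and macrophage sums. The part of these differences in the values of the 9 genes was not tested.

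AngII_FI 3 was the highest AngII_FI library for 6 of the 9 genes, Bckdha, Bckdhb, Dbt, Ppm1k, Bdh1 and Acat1. Bckdk and Oxct1 were highest in AngII_FI 2 and Bcat2 in AngII_FI 4. Mitochondrially encoded genes held 29.1% of counts in AngII_FI 3, against 34.9% to 37.3% in the other AngII_FI libraries. The part of this share in the CPM was not tested. The opposite-strand neighbour of Bcat2, 0610005C13Rik, which shares 622 bases with it, had 14 to 37 counts in 11 libraries but 1763 in AngII_FI 3. The part of the hepatocyte transcripts in the values of the 9 genes was not tested beyond leaving that library out.

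**Figure D3:**
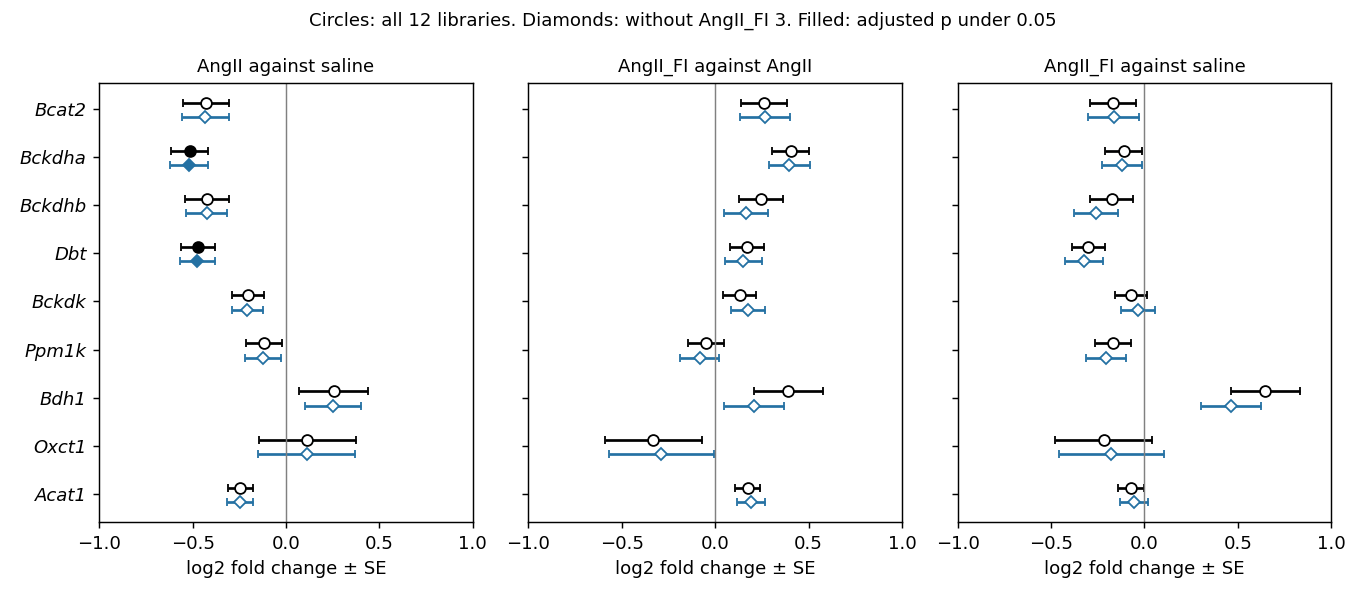
Log2 fold change with SE (horizontal axis) of the 9 genes in the 3 comparisons, from the edgeR fit of all 12 libraries (circles) and the fit without AngII_FI 3 (diamonds); filled symbols have an adjusted p under 0.05. Filled symbols occur only for Bckdha and Dbt in AngII against saline, and the largest shift between circle and diamond is that of Bdh1 in the 2 comparisons with AngII_FI.

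Among the other pathway genes with FI, 32 of 43 had values above 0 (median 0.13), and 30 of 43 without AngII_FI 3 (median 0.09). Of all tested genes 46.9% had values below 0, and 50.4% without AngII_FI 3. Those with the smallest p included Hsd17b10, a dehydrogenase of isoleucine breakdown (log2 fold change 0.31 ± 0.08), Ivd (0.47 ± 0.13) and Acad8, the acyl-CoA dehydrogenase of valine breakdown (0.35 ± 0.11), each with an edgeR adjusted p of 0.411. Ivd stood at 116, 177, 127 and 122 CPM in AngII_FI, all above the 4 AngII values, and only AngII_FI 2 reached the saline range. Hsd17b10 stood at 85.7, 92.6, 97.9 and 96.6 CPM against 79.8, 81.2, 80.5 and 71.9 CPM in AngII, also without overlap. In all, 3 of the 45 listed genes were higher without overlap and 2 lower, beside 0.858% and 5.12% of tested genes. Without AngII_FI 3 these were 3 and 3, beside 1.32% and 9.99%. In AngII against saline Hsd17b10 had a log2 fold change of -0.07 ± 0.08 (edgeR adjusted p = 0.750). Klf15 stood at 0.35 ± 0.19, and at 0.19 ± 0.18 without AngII_FI 3.

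**Figure D4:**
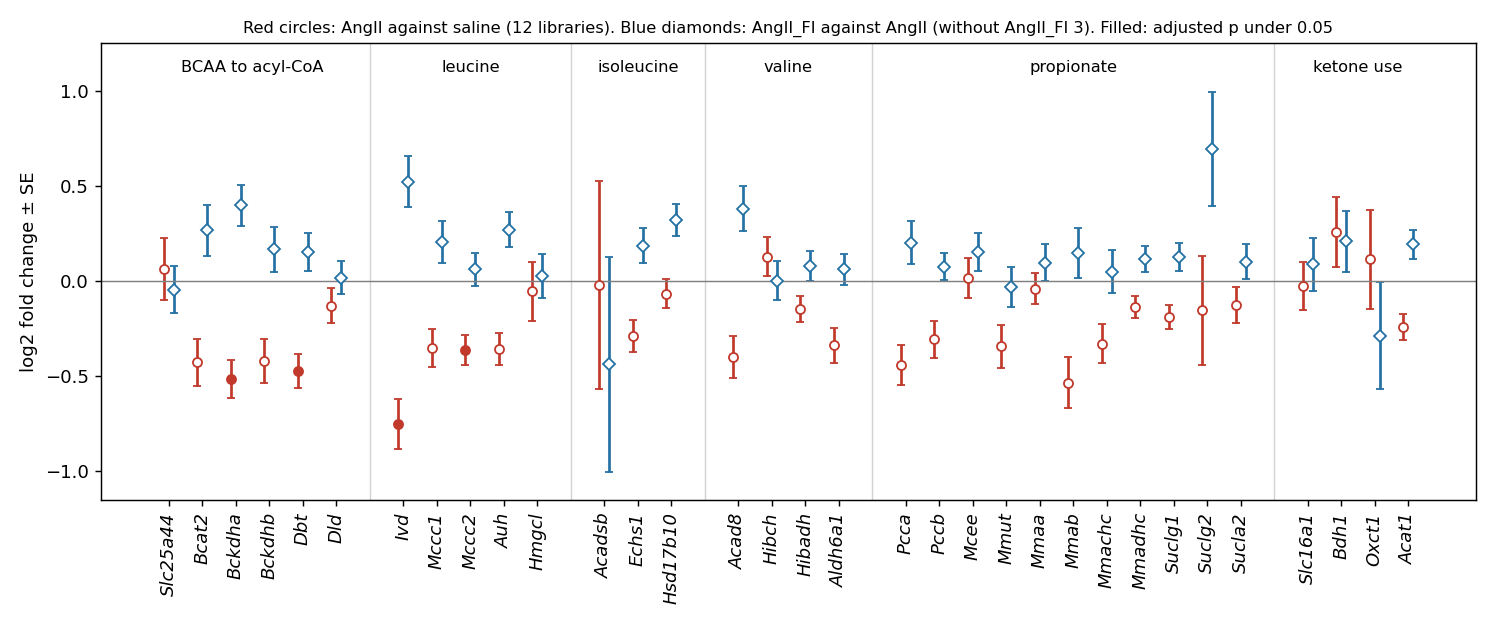
Log2 fold change ± SE (vertical axis) of the catabolic genes in pathway order, grouped by branch, for AngII against saline in all 12 libraries (red circles) and AngII_FI against AngII without AngII_FI 3 (blue diamonds); filled symbols have an adjusted p under 0.05. Bckdha, Dbt, Ivd and Mccc2 are the filled points, all below 0, and no blue point is filled; the 2 comparisons share the AngII libraries.

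Set against saline, the AngII_FI group shows how far the 9 genes lay from the saline group when Ang II and FI were both given. None of the 9 and none of the 43 passed by edgeR, beside 0.719% of tested genes that rose and 0.259% that fell. Without AngII_FI 3 none of the 9 passed either, beside 0.932% and 0.311%. In the edgeR fit of all 12 libraries, 2 of the 9 and 3002 of all 17376 genes had an unadjusted p under 0.05. With AngII_FI 3 included, DESeq2 called Bdh1 higher, beside 1.77% of the genes it fitted, and limma-voom called 0 of the 9. All 6 amino acid genes had values below 0, and their median was -0.17 on the log2 scale, or -0.19 in the fit that leaves out AngII_FI 3, against 0.0236 and -0.00806 over all tested genes. The largest of these was Dbt, at -0.30 ± 0.09 (edgeR adjusted p = 0.118), whose 4 AngII_FI values lay below all saline values. Acat1 was the other gene with no overlap, at -0.07 ± 0.07, beside 6.06% of tested genes that were lower without overlap. Without AngII_FI 3, Bckdhb (-0.26 ± 0.12) and Ppm1k (-0.21 ± 0.11) joined them, beside 11.1% of tested genes. Overlap was read on CPM before TMM scaling, and whether these genes stay apart after it was not tested.

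Bdh1 was the 1 member above 0 in this comparison, at 0.65 ± 0.19 (edgeR adjusted p = 0.109). Its AngII_FI mean was 129 ± 43.9 CPM against 84.2 ± 7.72 CPM in saline. Without AngII_FI 3 the mean was 110 ± 28.6 CPM and the log2 fold change 0.46 ± 0.16 (edgeR adjusted p = 0.178), and AngII_FI 1, at 85.2 CPM, lay within the saline range. Among other pathway genes those with the smallest p included Mccc2 (-0.28 ± 0.08, edgeR adjusted p = 0.105), Hsd17b10 (0.25 ± 0.08, 0.130) and Mmachc, a cobalamin-processing protein (-0.31 ± 0.10, 0.150).

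For each member the genes of most similar pattern were sought among 11935 protein-coding genes whose mean reached 1 CPM, by the root mean square difference of centred log2 CPM over the 11 libraries without AngII_FI 3. For Dbt they were Acad11 and Hadhb, both of fatty acid oxidation, at 0.0458 and 0.0474 log2 units, where Dbt itself had an SD of 0.237. For Acat1 they were Smyd2 (0.0254) and the malate dehydrogenase Mdh1 (0.0442). For Bcat2 they were Pdk2, a pyruvate dehydrogenase kinase (0.0759), and Ldhb, a lactate dehydrogenase chain (0.0838), and for Bckdhb Nipsnap2 (0.0592) and the aldehyde dehydrogenase Aldh2 (0.0639). Bckdha lay closest to Rtn2 and Gorasp1 (0.0766 and 0.0878), Bckdk to Adssl1 and Cuedc1 (0.0475 and 0.0508), and Ppm1k to March6 and Mef2a (0.0583 and 0.0736). Bdh1 and Oxct1 lay farthest from their closest genes, Trim72 (0.109) and Casq2 (0.215). Distances were not scaled to the SD, which was 0.259 for Bdh1 and 0.385 for Oxct1. For the other members it was 0.116 (Acat1) to 0.270 (Bckdha). Among the 9 themselves Bcat2 and Bckdhb were the closest pair, 0.0852 apart, and Oxct1 and Bdh1 were the farthest from any other member, at 0.347 and 0.270. Among all genes compared, the nearest member ranked 3 for Bcat2, 6 for Bckdha and 20 for Bckdhb. For the other members it ranked 124 (Dbt) to 2439 (Bdh1). These distances also carry what the libraries share, such as depth and cell makeup.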

How the data were processed

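From the ventricles of 12 mice, the authors deposited a single table of whole-number gene counts, unnormalized, with a column for each library. The submitters' processing notes name HISAT, featureCounts 1.5.0-p3, DESeq 1.8.3 and GRCm38. The annotation release and the strand setting of the counting could not be taken from them. The labels' protocols name both TRIzol and an RNeasy kit. Groups and numbers came from the titles. The 13 unnamed empty columns were not used, and 27 date-like symbols were restored by gene ID.

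CPM were computed over the library total. Genes passing filterByExpr were scaled by TMM and tested with edgeR 4.0.16 (quasi-likelihood, R 4.3.3) in 1 fit of 3 group means, with Benjamini-Hochberg adjustment over all 17376 tested genes and a threshold of 0.05. Positions and exon lengths came from GENCODE M21 (GRCm38), which matched 99.5% of IDs. Alternatives were DESeq2 1.42.0, limma-voom (limma 3.58.1), other scalings and filters, the replicate number as a block and each library left out; leaving out AngII 4 and AngII_FI 3 together was chosen after seeing the data. The members and lists were chosen with earlier results of these data known. Of the other pathway genes, those called in a comparison, the 4 with the smallest p in each, Slc16a1 and Klf15 are named, except that 1 gene is not reported here. Pattern distances used log2(CPM + 0.5). The fit was tested on simulated counts.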

Additional observations from a re-analysis of the deposited data

Results flagged for a closer look

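In each group of 4 libraries a value was marked where its gap to the nearest other, over the range, exceeded Dixon's 95% critical value; chance marks about 1 in 20 groups, and 6 values were marked over 54 groups of 18 genes. Oxct1 stood at 1159 CPM in AngII 4, against 440 to 541 CPM in the other AngII libraries. Of 13460 genes whose mean over the other 11 libraries reached 1 CPM, 3 (Oxct1 among them) exceeded their highest other library in AngII 4 by as large a factor, 1.71, or more. BC037032, which overlaps Oxct1 on the opposite strand, had 270 counts in AngII 4 and 176 to 320 over all libraries.

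Ppm1k stood at 91.3 CPM in saline 4, against 67.0 to 70.3 CPM. Bcat2 stood at 80.5 CPM in AngII_FI 1, below 100.4 to 104 CPM in the other 3. In AngII 1, Bckdhb stood at 40.3 CPM, above 37.3 to 37.7 CPM, and Dbt at 47.6 CPM, above 43.2 to 43.9 CPM. Hsd17b10 stood at 71.9 CPM in AngII 4, below 79.8 to 81.2 CPM.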

How the results depend on the processing

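For AngII against saline, where 2 of the 9 genes were called, DESeq2 called 5, library totals without further scaling 1 (Dbt), the replicate block 1 (Bckdha), leaving out AngII 4 and AngII_FI 3 together 1 (Bckdha), and fits without 1 library 0 to 2. Of the other pathway genes, where 2 were called, DESeq2 called 9, limma-voom 4, RLE scaling 4, library totals alone 1, no low-count filter 1, leaving out mitochondrially encoded genes 4, the 2 groups alone 8, the replicate block 0, and fits without 1 library 0 to 8. The shares of all genes called moved too: 2.23% as reported, and 4.12%, 2.65%, 2.35%, 1.83%, 0.679%, 2.27%, 3.38% and 0.714% under these alternatives in the order just given, 0.506% to 3.86% without 1 library, and 1.67% without AngII 4 and AngII_FI 3. For AngII_FI against saline, DESeq2 called 1 of the 9 (Bdh1) and 1 other pathway gene (Mccc2), and fits without 1 library called 0 to 1 of the latter, beside 3.11% of all genes by DESeq2. For AngII_FI against AngII, all alternatives called 0 of the 9. The causes were not tested. Of 567 fold changes of the 9 genes under these alternatives, 547 kept direction and side of the threshold, 12 lost a call, 4 gained one and 4 turned direction, all of Oxct1: over fits without 1 library it ranged from -0.31 to 0.27 (AngII against saline) and from -0.49 to 0.08 (AngII_FI against AngII), and without AngII 4 and AngII_FI 3 it was -0.31 and 0.13. Of 630 fold changes of the other named genes, 574 kept both, 17 lost a call, 22 gained one and 17 turned direction. The ranges over fits without 1 library that crossed 0 were, for AngII against saline, -0.13 to 0.055 for Slc16a1. For AngII_FI against AngII they were -0.0088 to 0.16 for Slc16a1, -0.047 to 0.060 for Mmachc and -0.44 to 0.11 for Slc16a3. For AngII_FI against saline they were -0.049 to 0.13 for Slc16a1, -0.15 to 0.024 for Acad8 and -0.22 to 0.16 for Klf15. Without AngII 4 and AngII_FI 3, Slc16a1 had 0.044 for AngII against saline and Slc16a3 0.082 for AngII_FI against AngII. With library totals alone, Mmachc had -0.038 for AngII_FI against AngII. Same-numbered libraries deviated together with correlations of -0.0572 to 0.105, so the numbers were not taken to pair them, and the replicate block cut all calls for AngII against saline from 273 higher and 115 lower to 105 and 19. Without 1 library these were 79 and 11 to 441 and 242. The common biological coefficient of variation was 0.343, and 0.269 without AngII_FI 3.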
